A study of Cuscuta campestris with 8 samples.

Results

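Cuscuta campestris, a dodder, is a leafless parasitic plant whose twining shoots fasten to a host stem through haustoria. A set of 60 genes with abundant transcripts in its shoot and lower levels in its haustorial region is described here. The genes were chosen by their measured read counts in the same 8 libraries, out of 45825 genes in the deposited files, of which 32855 passed a filter on low counts. Averaged over the 8 libraries, each reached 100 CPM or more (CPM are counts per 1000000 counts, scaled between libraries by the TMM method). Its mean shoot level was at least 4 times its mean haustorial level, with 0.1 CPM added to each, and every shoot library lay above every haustorial one. Of 1558 tested genes that reached 100 CPM, these 60 make up 3.85%.

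The dodder was raised in vitro on an artificial host, without a living host plant. Vegetative shoot tips of 3 cm, cut from plants grown on Beta vulgaris, were surface-sterilised and attached to artificial hosts. These held a liquid medium with the auxin 1-naphthaleneacetic acid at 3 mg per litre and the cytokinin 6-benzylaminopurine at 1 mg per litre. Both tissues came from such plants, lit for 2.5 days with additional far-red and for 12.5 days with the full spectrum, and were collected at day 15. The haustorial region was the stem part bearing healthy holdfasts, with shoots and lateral meristems cut away, while the shoot was newly grown stem with its meristems, taken after dropping the adjoining 5 mm of stem. Each tissue has 4 libraries of polyadenylated RNA, each from a pool of 3 to 4 plants. Libraries held 22334600 to 34247925 counts, so that 3 counts correspond to 0.0876 to 0.134 CPM.

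A dodder shoot elongates and coils around supports, bears scales in place of leaves, and carries the apical meristem from which new stem forms. Haustoria arise from stem tissue at the contact site and take up water, sugars and minerals from the host. The files identify genes only by numbered codes. A table of 45474 genes of assembly GCA_900332095.2 matched 0 of the 45825 codes, so no gene could be given a name or a function, and the labelled tissues could not be checked against marker genes. The 60 genes are therefore referred to by their rank, from 1 for the highest mean CPM in the shoot to 60 for the lowest. A CPM value counts reads and was not divided by transcript length, so ranks order read counts and not transcript numbers. In bulk tissue, fewer cells of a type and less RNA per cell cannot be told apart.

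The 60 genes covered a wide range of levels in the haustorial region. Their mean shoot level ran from 160 to 3204 CPM, with a median of 265 CPM, and their mean haustorial level from 0.386 to 304 CPM, with a median of 27.2 CPM. The ratio of the means (shoot over haustorial region) ran from 4.05 to 755, with a median of 10.6. In the haustorial region 5 genes averaged under 1 CPM, 13 stood between 1 and 10 CPM, 35 between 10 and 100 CPM, and 7 at 100 CPM or more. The haustorial levels thus ranged from near the counting floor to well detected. In the shoot, 17 of the 60 were among the 100 genes with the highest counts and 3 among the top 10, whereas none was among the top 100 of the haustorial region and 29 fell below its top 10000.

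**Figure D1:**
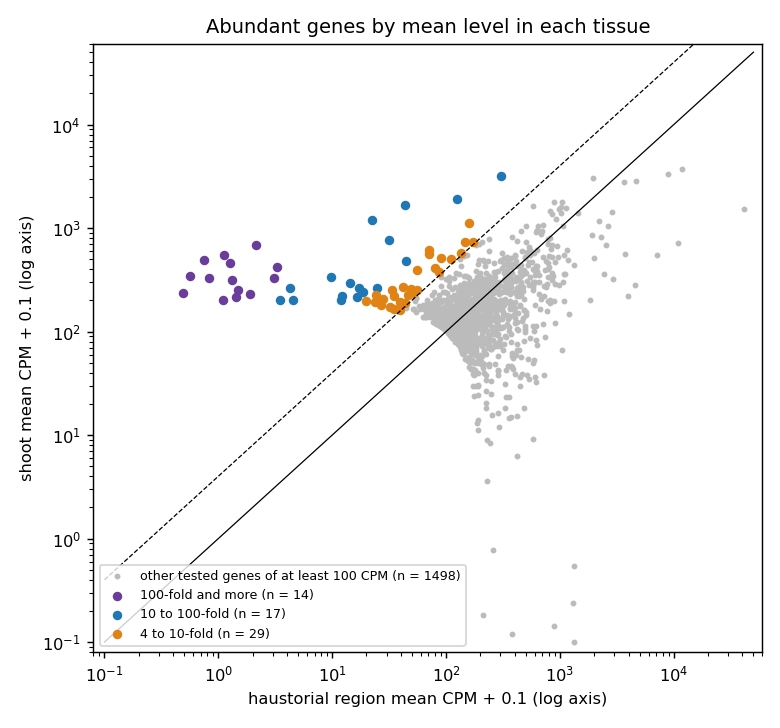
Mean CPM + 0.1 in the haustorial region (horizontal) and in the shoot (vertical), both log axes, for the 1558 tested genes of at least 100 CPM. Coloured points are the 60 genes by ratio group, grey points are the other genes, the solid line marks equal levels and the dashed line a 4-fold higher shoot level. The coloured points spread from 0.386 to 304 CPM in the haustorial region.

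Because these values chose the genes, the tissue comparison itself is only descriptive for them. In an edgeR quasi-likelihood fit over all 32855 genes, 34% of genes were called lower in the haustorial region (Benjamini-Hochberg adjusted p under 0.05) and 31.2% higher, and all 60 genes were among the lower ones. Every shoot value lay above every haustorial value for 31.8% of tested genes and, by the choice, for all 60. Their fitted log2 fold change (haustorial region over shoot) had a median of -3.41, beside -0.02 over all tested genes, and its standard error ran from 0.07 to 0.63. Of all genes called, 47.9% were higher in the haustorial region, and 33.1% with libraries scaled by their totals alone, a scaling that moved the median of all genes by -0.19 and the median of the 60 to -3.60.

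The rule's limits cut through a continuous range. The gene with the lowest mean inside was at 100.03 CPM over the 8 libraries and the nearest one outside, alike in ratio and separation, at 99.98 CPM. The lowest ratio inside was 4.04 with 0.1 CPM added to each mean, and the highest outside was 3.87. No gene met both limits and was left out for overlap between the tissues.

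For description the genes were split by ratio, with borders set after the values had been seen. The first group holds 14 genes at a ratio of 100 or more, the second 17 genes between 10 and 100, and the third 29 genes between 4 and 10. Their median shoot levels were close, at 329, 266 and 250 CPM. Their median haustorial levels were 1.19, 17.2 and 46.5 CPM. The groups thus differ mainly in how much transcript was left in the haustorial region, which is what defined them. The lowest shoot library exceeded the highest haustorial one by 80.6 to 446 times in the first group, by 5.08 to 45.3 times in the second and by 2.69 to 7.27 times in the third.

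**Figure D2:**
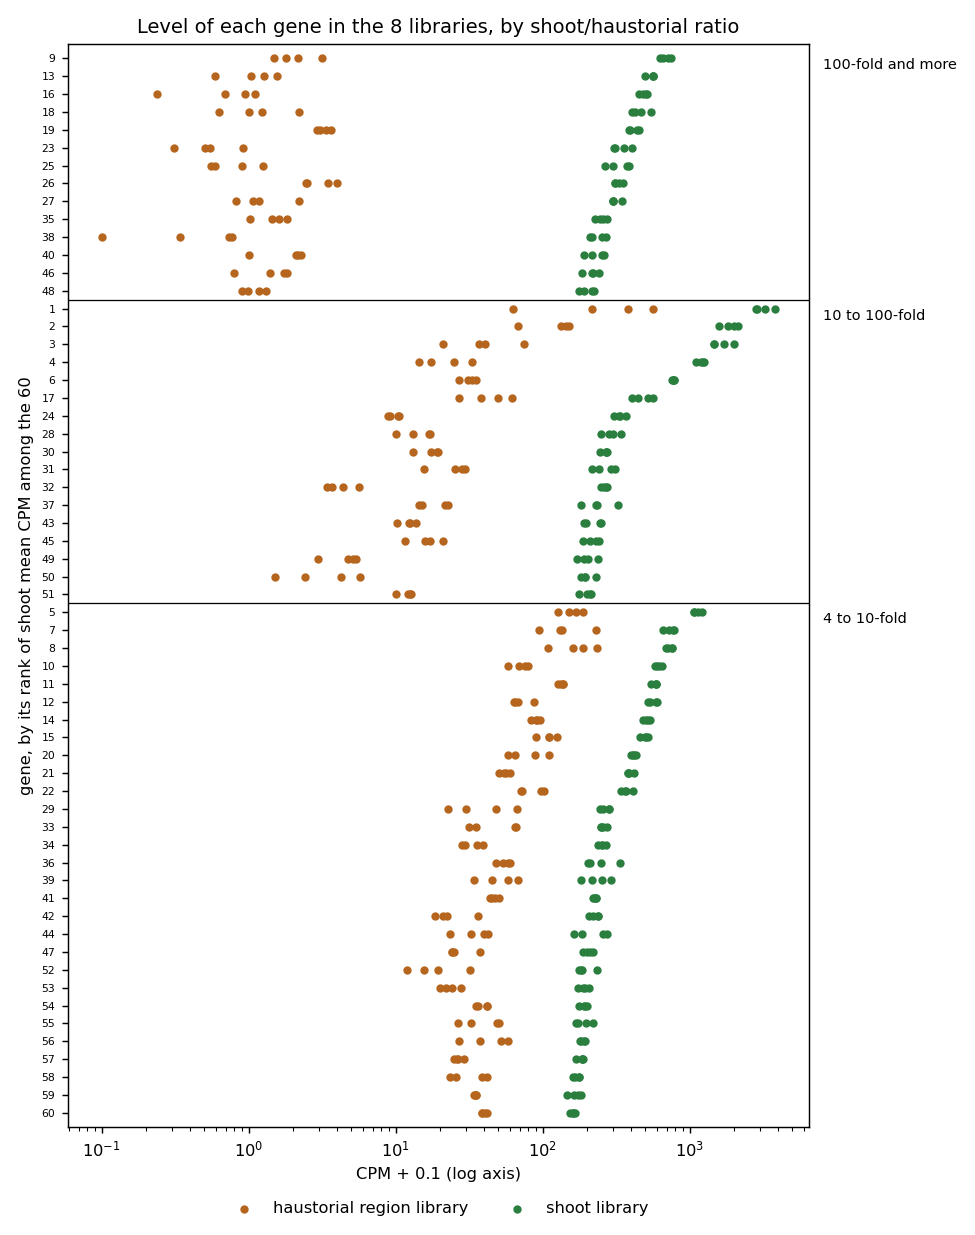
CPM + 0.1 (log axis) of each of the 60 genes in the 4 haustorial region and the 4 shoot libraries, 1 point per library. Genes are ordered by rank of shoot mean within the 3 ratio groups, which are divided by lines. Haustorial points of the first group lie between 0 and 3.88 CPM and all its shoot points above 177 CPM.

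The first group consists of genes that were nearly absent from the haustorial region. Its largest ratio belonged to Cc003175, of rank 16. It was at 449, 508, 513 and 480 CPM in shoot replicates 1 to 4 and at 0.587, 0.847, 0.140 and 1.01 CPM in haustorial replicates 1 to 4, from 13, 19, 4 and 25 counts. The shoot libraries were close to each other, and the haustorial ones were low in every library, lowest in replicate 3. The mean was 488 ± 29 CPM (SD, n = 4) in the shoot and 0.646 ± 0.379 CPM in the haustorial region. The ratio of pooled counts over scaled library sizes was 780, with an exact 95% interval of 607 to 1019 for counting error only.

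Rank 9 had the highest shoot level of this group, at 634, 657, 748 and 716 CPM in replicates 1 to 4, against 1.40, 2.05, 3.08 and 1.69 CPM in the haustorial region. Its lowest shoot library stood above its highest haustorial one by 206 times. Rank 38 had the lowest haustorial mean of the 60, with 14, 15, 0 and 6 counts in haustorial replicates 1 to 4, that is 0.632, 0.669, 0 and 0.242 CPM, against 210, 271, 217 and 254 CPM in the shoot. It was the single gene of the 60 with no count in a library, and its mean was 238 ± 30 CPM in the shoot and 0.386 ± 0.322 CPM in the haustorial region. Over all 14 genes, single haustorial libraries held 0 to 111 counts of a gene.

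The first group was low to a like degree in all haustorial libraries. Its summed level was 17.2, 22.7, 18.7 and 18.7 CPM in haustorial replicates 1 to 4 and 4646, 5046, 5284 and 5269 CPM in shoot replicates 1 to 4. The haustorial sums were 0.341%, 0.448%, 0.370% and 0.369% of the mean shoot sum. Single genes kept between 0.132% and 0.917% of their mean shoot level. How much of these low counts came from shoot tissue in the haustorial pools was not tested.

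The second group held 4 of the 5 genes that exceeded 1000 CPM in the shoot. The highest of all was Cc010127, of rank 1, at 3811, 3287, 2872 and 2844 CPM in shoot replicates 1 to 4 and at 215, 560, 379 and 63.0 CPM in haustorial replicates 1 to 4. The shoot values spanned 1.34-fold and the haustorial values 8.89-fold, with replicate 2 highest and replicate 4 lowest. Its mean was 3204 ± 453 CPM (SD, n = 4) in the shoot and 304 ± 214 CPM in the haustorial region, a ratio of 10.5. Counting error is small here, since the lowest library held 1563 counts. The fitted log2 fold change was -3.40 ± 0.63 (SE), with the largest standard error of the 60 genes.

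The gene of rank 2 was at 2153, 1821, 1588 and 2010 CPM in the shoot and at 67.5, 134, 151 and 145 CPM in the haustorial region, where replicate 1 was low. Rank 3 reached 1727, 1477, 1465 and 1995 CPM in the shoot and 20.8, 36.7, 75.1 and 40.3 CPM in the haustorial region, where replicate 3 was high. Rank 4 stood at 1103, 1233, 1193 and 1260 CPM in the shoot and at 17.3, 24.98, 33.1 and 14.4 CPM in the haustorial region. Ranks 2 and 3 had the same order of haustorial libraries, and none of these had the order of rank 1. The steadiest of all 60 in the shoot was rank 6, at 784, 759, 767 and 781 CPM, with 26.9, 35.0, 30.8 and 33.0 CPM in the haustorial region.

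The third group comprised genes that were still well expressed in the haustorial region. Its most abundant member was rank 5, at 1071, 1065, 1215 and 1147 CPM in the shoot and at 127, 150, 170 and 187 CPM in the haustorial region. The highest haustorial level of this group was that of rank 8, at 161, 233, 188 and 110 CPM against 712, 756, 763 and 687 CPM in the shoot. The 2 tissues were separated least for rank 39, at 34.3, 45.1, 57.7 and 67.5 CPM in the haustorial region and 182, 290, 253 and 218 CPM in the shoot. Its lowest shoot library was 2.69 times its highest haustorial one, the smallest such gap among the 60. The gene of rank 59 had the most even haustorial level of the 60, at 35.0, 35.2, 34.5 and 33.9 CPM, against 146, 182, 173 and 163 CPM in the shoot.

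Together the 60 genes held 2.92%, 2.86%, 2.91% and 2.97% of all counts in shoot replicates 1 to 4 and 0.204%, 0.258%, 0.261% and 0.234% in haustorial replicates 1 to 4. The means were 2.91% ± 0.04 (SD, n = 4) and 0.240% ± 0.026. The 5 genes of highest rank held 0.969% ± 0.062 of shoot counts and 0.0607% ± 0.0210 of haustorial counts, so the remaining 55 genes carried the larger part. Of the shoot counts, the first group held 0.541% ± 0.039, the second 1.27% ± 0.07 and the third 1.10% ± 0.03. Of the haustorial counts, they held 0.00181% ± 0.00020, 0.0657% ± 0.0202 and 0.172% ± 0.014. The third group thus made up most of what the 60 genes contributed in the haustorial region, which follows from how the groups were formed. Cc010127 alone held 0.0281% ± 0.0194 of haustorial counts.

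**Figure D3:**
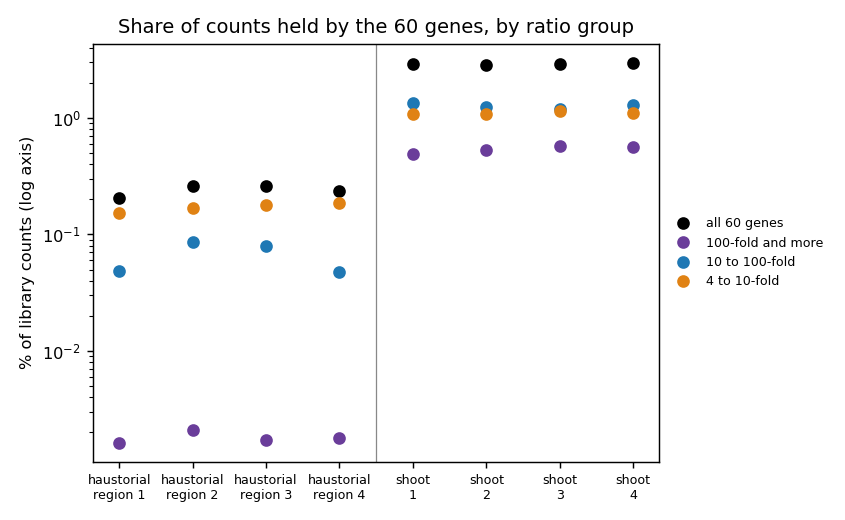
Percent of all counts of a library (log axis) held by all 60 genes and by each ratio group, 1 point per library. All 60 genes lie between 0.204% and 0.261% in haustorial region libraries and between 2.86% and 2.97% in shoot libraries, and the group of 14 genes at 100-fold or more near 0.00181% in the haustorial region.

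The same rule was applied with the libraries of 1 replicate number left out of both tissues, and the ratio was then read in the libraries left out. Replicate numbers served only as names, and the 4 rounds share libraries, so their values are a description. The 6 remaining libraries chose 60, 60, 63 and 61 genes without numbers 1 to 4, of which 58, 56, 57 and 57 were among the 60. In the libraries left out, the shoot value was the higher one for every chosen gene in each round. The ratio there was at least 4 for 60, 54, 55 and 52 of them and at least 2 for all. No share over all tested genes was taken in the libraries left out, so these counts have no background beside them. The lowest ratios were 4.00, 2.12, 2.37 and 2.43, and the median ratio was 13.04, 12.7, 8.19 and 9.59, beside 9.67, 9.35, 9.22 and 8.90 in the libraries that made the choice. Scaling and the filter on low counts used all 8 libraries.

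Spread between libraries of a tissue, which the rule used only through the separation of the tissues, was small in the shoot and larger in the haustorial region. The coefficient of variation over 4 libraries had a median of 7.42% in the shoot (1.54% to 24.7%) and 24.7% in the haustorial region (1.69% to 83.4%). It was larger in the haustorial region for 55 of the 60 genes (91.7%), beside 75.6% of the 1558 abundant genes, whose medians were 6.04% and 10.7%. It was also the larger one for 81.9% of the 690 tested genes of at least 160 CPM in the shoot, and for 86.6% of 119 other tested genes with a ratio of at least 4, a haustorial mean of 10 to 100 CPM and a mean under 100 CPM. For the 116 abundant genes of the same rule with tissues exchanged, medians were 18.5% in the shoot and 16.8% in the haustorial region. The haustorial value was the larger one for 45 of them. In 1090 abundant genes with a ratio of 0.5 to 2, the haustorial region had the larger coefficient of variation for 80.1%. Their medians were 5.15% in the shoot and 9.47% in the haustorial region. A larger haustorial spread was thus not particular to the 60 genes or to genes of lower level there. The highest library exceeded the lowest by more than 2-fold for 22 genes in the haustorial region and for none in the shoot.

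Level and spread go together in count data, so genes of like haustorial level were set beside each other. Of the 60 genes, the 35 with a haustorial mean of 10 to 100 CPM had a median coefficient of variation of 23.7% there, and all 16741 tested genes in that range had 9.64%. The 119 other genes with a ratio of at least 4 had 16.6%. For the 13 genes between 1 and 10 CPM the median was 33.3%, beside 17.1% over 11104 tested genes. In the first group, counting error alone would give a median of 18.7%, against the 37.8% measured. These medians are descriptions, since genes of 1 library are not independent replicates.

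**Figure D4:**
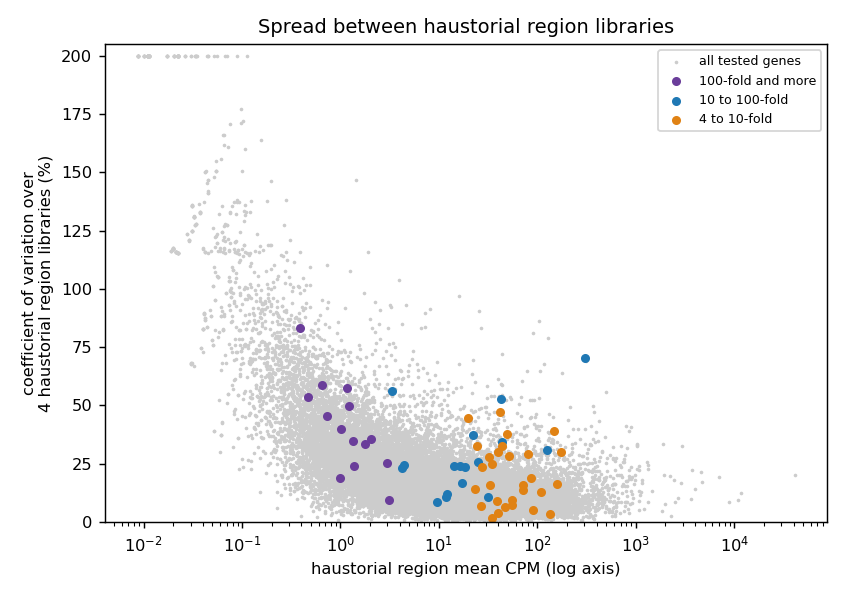
Coefficient of variation (%) over the 4 haustorial region libraries against mean haustorial CPM (log axis), for all tested genes with a haustorial count (grey) and the 60 genes by ratio group. Between 10 and 100 CPM the 60 genes have a median of 23.7% and all tested genes 9.64%; the point near 70% at 304 CPM is Cc010127.

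The genes did not share a single high or low library. Among shoot libraries, the highest value fell in replicates 1 to 4 for 11, 13, 21 and 15 of the 60 genes, that is for 35.0% in replicate 3. This library held the highest value for 13.9% of all abundant genes and for 32.8% of the 119 other genes with a ratio of at least 4, a share near that of the 60. The 35 members with 10 to 100 CPM in the haustorial region were even, with 25.7% in replicate 3. The 14 genes of the first group had their highest value in replicate 3 in 7 cases, in replicate 4 in 5, in replicate 2 in 2 and in replicate 1 in none. In 7 of these 14 genes, shoot replicates 3 and 4 both lay above replicates 1 and 2, and the reverse occurred in none. In the second group 3 genes had replicates 3 and 4 above and 4 had the reverse, and in the third group 7 and 8. Over all abundant genes these shares were 14.4% and 37.8%, and over the 119 other genes 32.8% and 14.3%. Those 119 genes leaned as the first group did, but at a higher haustorial level. The 35 members of their level leaned the other way (17.1% and 28.6%). All tested genes with a haustorial mean of 1 to 10 CPM had shares of 22.1% and 18.1%. The libraries of the shoot carry no label that separates replicates 1 and 2 from 3 and 4. In the haustorial region the lowest value fell in replicate 1 for 22 of the 60 genes (36.7%). This share was 11.6% for abundant genes and 23.5% for the 119 other genes. The highest value fell in replicates 1 to 4 for 6, 20, 15 and 19 of the 60 genes. Replicate 2 was thus highest for 33.3% of them, beside 28.4% of abundant genes and 42.9% of the 119 other genes.

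Identifier numbers were not used by the rule. Whether they follow position in the genome is not stated in the sources used here. Numbers in the files ran from 3 to 47660, and the median gap between neighbouring members of the set was 455. In 2 cases members had consecutive numbers. These were ranks 19 and 48, both of the first group, and ranks 51 and 60. Ranks 1 and 3, which include the most abundant gene, were 2 numbers apart. Of the 60 genes, 17 had another member within 25 numbers. This count and the median gap were not set against other sets of 60 genes, so they do not show whether members lie unusually close.

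Genes next to the 60 in number, mainly those just before them, had a larger share of lower calls than all tested genes, which is given here as counts without a test. Of 114 other genes with a number 1 above or below a member, 87 were tested. At least 2-fold lower were 30 of the 87 (34.5%), where 15.3% of all tested genes were called with such a fall (edgeR, adjusted p under 0.05), and 6 (6.90%) were called at least 2-fold higher, beside 9.34% of all tested genes. At a distance of 2 numbers 20 of 88 (22.7%) were lower by at least 2-fold, at 3 to 5 numbers 45 of 289 (15.6%), and at 6 to 10 numbers 69 of 470 (14.7%). The share above the background was thus found at distances of 1 and 2. It lay mostly on one side, with 20 of 42 tested genes (47.6%) lower by at least 2-fold at the number before a member and 10 of 46 (21.7%) at the number after it, where 5 (10.9%) were higher. The gene between ranks 3 and 1 is counted on both sides. The abundant genes of the opposite rule showed a like trait in their own direction, with 35 of 180 tested neighbours (19.4%) called higher there by 2-fold or more.

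The neighbours of the first group carried the largest share. Of 20 tested genes beside the 14, 12 (60%) were called at least 2-fold lower and 1 higher. Both sides had a high share here, with 7 of 10 lower at the number before and 5 of 10 at the number after. Beside the other 46 members it was 18 of 67 (26.9%). Lower calls are more common among genes of low count in general. Among neighbours with a mean of at least 10 CPM, 11 of 56 (19.6%) were at least 2-fold lower, beside 9.43% of 19209 tested genes at that level. Among those under 10 CPM it was 19 of 31 (61.3%), beside 23.6% of 13646. For the first group alone it was 4 of 10 neighbours of at least 10 CPM and 8 of 10 under 10 CPM. Neighbouring genes are not independent of each other.

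**Figure D5:**
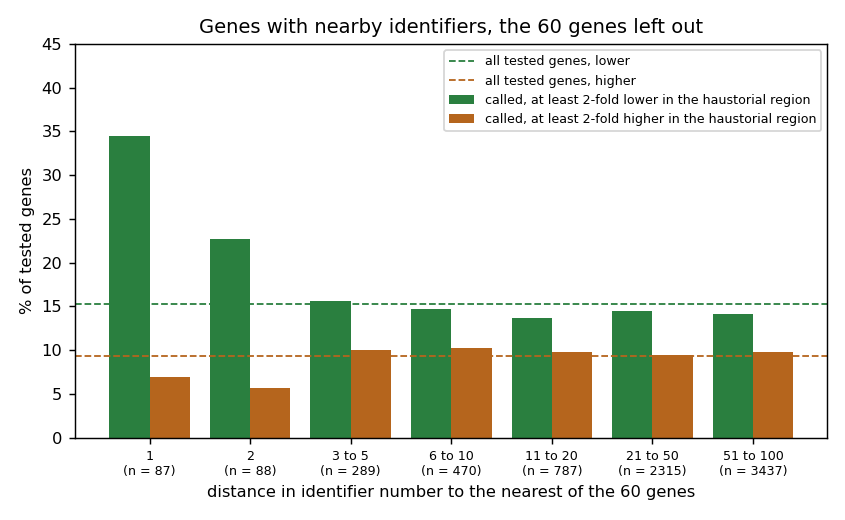
Percent of tested genes called at least 2-fold lower (green) or higher (brown) in the haustorial region, by distance in identifier number from the nearest of the 60 genes, which are themselves left out. Dashed lines give the shares over all tested genes, 15.3% and 9.34%; the lower share is 34.5% at distance 1, 22.7% at 2 and 15.6% at 3 to 5.

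Ranks 48 and 19 and the gene after them had 3 consecutive numbers and were all low in the haustorial region. The gene just before rank 48 was also lower there, less strongly, at 2.40 ± 0.38 CPM in the shoot and 0.671 ± 0.256 CPM in the haustorial region. Its log2 fold change was -1.80 ± 0.28 (SE; edgeR adjusted p = 6.32e-05). Rank 48 was at 177, 192, 216 and 222 CPM in the shoot and at 1.22, 0.803, 1.08 and 0.887 CPM in the haustorial region. Rank 19 was at 391, 389, 453 and 441 CPM in the shoot and at 2.98, 3.26, 2.83 and 3.51 CPM in the haustorial region. The gene after rank 19 was far less abundant, at 4.81, 4.13, 5.82 and 4.98 CPM in the shoot, and had no count in any haustorial library. Set against 3 counts over the 4 haustorial libraries together, it was at least 162-fold lower there (edgeR adjusted p = 2.24e-08). Reads shared between such neighbours, by overlap or by similar sequence, could not be examined with these files.

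A neighbour of rank 4 was itself abundant in the shoot, at 103, 106, 96.9 and 137 CPM, and was at 0.722, 1.61, 2.24 and 0.807 CPM in the haustorial region. With an edgeR adjusted p of 4.31e-08, its log2 fold change was -6.33 ± 0.28 (SE). It stayed outside the set by its mean. The gene before rank 11 differed from its member, which kept 134 ± 5 CPM in the haustorial region against 580 ± 21 CPM in the shoot. That neighbour had 395 counts in the shoot and 2 in the haustorial region, a ratio of 166 with an exact 95% interval of 45.6 to 1375 for counting error. Not every neighbour went the same way. A gene beside rank 45 was at 0.407 ± 0.161 CPM in the shoot and 47.3 ± 13.5 CPM in the haustorial region, higher there by 6.86 ± 0.29 on the log2 scale (SE; adjusted p = 1.18e-08 by edgeR), while rank 45 itself was at 217 ± 23 CPM and 16.3 ± 3.9 CPM. These neighbours were picked after their values were seen.

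For the 116 genes found by the opposite rule, with the tissues exchanged, the median level in the haustorial region was 386 CPM, and the median ratio with 0.1 CPM added was 7.87, beside 265 CPM in the shoot and 10.6 for the 60 genes. A ratio of 100 or more was reached by 14 of the 60 shoot genes (23.3%) and 7 of the 116 haustorial genes (6.03%). This difference was not tested, since both sets were chosen on the same contrast.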

How the data were processed

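RNA of 8 Cuscuta campestris libraries, 4 per tissue, was grouped by the sample titles. Each library has 1 deposited file of unscaled read counts by gene. STAR 2.5.2b stands in the submitters' processing notes. How reads were counted, with which strand setting, build and annotation, is not given in the sources used here. Near-identical gene copies may have split or lost reads.

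Counts were analysed in R 4.3.3. Genes passed edgeR's filterByExpr at its defaults (minimum count 10 and total 15), libraries were scaled by TMM on the filtered counts, and tissues were compared over 8 libraries with edgeR 4.0.16 (robust quasi-likelihood F test, tissue as the only term, Benjamini-Hochberg over 32855 genes). Standard errors are the absolute log2 fold change over the square root of F. The code was tested on simulated data. Alternatives were DESeq2 1.42.0, other scalings, filters and limits, a replicate block, and leaving out each library. Nothing states that pools of a tissue were independent cultures, so p-values set the tissue difference against the spread between these samples only. Between libraries of the same tissue, counts varied 4.91 to 25.6 times more than sampling alone gives (chi-square per degree of freedom), so each library was counted once.

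The members, lists and tests were chosen with earlier results of these data known. As identifiers have no names, the rule for named genes prints 2: the member with the highest shoot mean and the one with the largest ratio. Gene lists for photosynthesis, cell walls, cuticle, division and meristems could not be linked to identifiers and gave no result.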

Additional observations from a re-analysis of the deposited data

Results flagged for a closer look

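In 8 of 120 sets of 4 libraries (60 genes in each tissue), 1 library stood apart by Dixon's criterion, which chance alone meets in about 5% of such sets, against 6.67% here. In the shoot, rank 11 was low in replicate 1 at 548 CPM, with 587 to 594 CPM in the other libraries, and rank 13 was low in replicate 1 at 500.2 CPM, with 563 to 567 CPM in the others. Rank 27 was high in replicate 4 at 348 CPM (others 302 to 303 CPM), and rank 52 was high in replicate 3 at 233 CPM (others 177 to 187 CPM). In the haustorial region, rank 12 was high in replicate 4 at 88.0 CPM (others 64.3 to 68.0 CPM), and rank 47 was high in replicate 2 at 37.4 CPM (others 24.0 to 24.9 CPM). Rank 40 was low in replicate 1 at 0.903 CPM (others 2.02 to 2.19 CPM), and rank 51 was low in replicate 3 at 9.93 CPM (others 12.1 to 12.5 CPM). These 8 extremes fell in 7 different libraries.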

How the results depend on the processing

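Of 32855 tested genes, 21412 were called between the tissues. Over the alternatives the count ran from 17122 of 24920 tested, with at least 5 CPM in 4 libraries, to 22074 of 39975 without a filter. All 60 members were called lower in each of the 16 fits, a description only, since the same contrast chose them. In the main fit 34% of all tested genes were called lower. With the replicate block, 20659 genes were called, 10838 of them lower in the haustorial region, and these included all 60 members. Same-numbered libraries had correlations of deviations of -0.06 to 0.04. No label ties a number to shared plants, and these correlations cannot decide whether the numbers pair samples. Membership moved with its limits. A mean limit of 50 CPM gave 172 genes and 200 CPM gave 22, and a ratio limit of 2 gave 155 and 8 gave 35. Library-size scaling chose 79 genes, which held 3.58% of shoot and 0.379% of haustorial counts, and library sizes taken before the filter, tried after the data were seen, gave 59. Each library left out gave 46 to 77 genes, fewer without a shoot and more without a haustorial library, since the mean over libraries then weights the tissues unequally. Of the 60 genes 42 were chosen in all of these, and the sets held 2.63% to 3.29% of shoot and 0.219% to 0.284% of haustorial counts. The median log2 ratio stayed between 3.16 and 3.46 (3.41 as reported). The log2 fold change of Cc010127 was -3.85 without haustorial replicate 2 and -3.04 without replicate 4, with adjusted p of 0.00202 and 3.43e-05 (edgeR; 0.00216 with all libraries), and that of Cc003175 ran from -9.91 to -9.20. The ratio of the median haustorial spread of the members to that of abundant genes was 2.30 by coefficient of variation and 2.43 by SD of log2 CPM. The highest shoot value fell in replicate 3 for 35.0% to 40.0% of members over the scalings. The share of neighbours at least 2-fold lower was 34.5% at 1 number, 28.6% within 2 numbers and 19.6% for neighbours of at least 10 CPM, a restriction added after the data were seen. The gene lists could not be run. Little can be said of genes at about 3 counts in a library.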
